A study of Homo sapiens with 8 samples.

Results

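The 9 genes described here encode feedback inhibitors of receptor tyrosine kinase signalling: the Sprouty genes SPRY1, SPRY2 and SPRY4, the Spred genes SPRED1, SPRED2 and SPRED3, the dual specificity phosphatases DUSP4 and DUSP6, and IL17RD, which encodes the receptor-like inhibitor also called SEF. They were chosen by name as one family of inhibitors, with earlier results of these data known, and no threshold on a measured value was used. Of the 18201 genes that passed the filter on low counts, the 9 were all members, and no member was lost to the filter. RNA was sequenced from oligodendrocyte progenitor cells (OPCs). They were derived from the human embryonic stem cell line H9, which is an established line, and carried no SOX10 transgene. The cells had spent 2 days on 1 of 3 coated surfaces: Matrigel, a basement membrane extract (2 libraries, replicates 2 and 3, with replicate 1 not analysed here), VN, which is full-length vitronectin (3 libraries), or VNP2, a designed peptide based on the integrin-binding stretch of vitronectin and carried on a mussel adhesive protein (3 libraries). Per the labels, the cells of every group were seeded in OPC medium, and the study's recipe for it lists basic FGF, a ligand of this pathway, beside insulin, retinoic acid and a Smoothened agonist. All libraries came from a single cell line, and the labels do not say whether replicates were separate cultures, so p-values measure the spread between these libraries, which may be technical.

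When a growth factor such as FGF or PDGF binds its receptor, the signal passes through adaptor proteins to RAS, RAF, MEK and ERK, and active ERK switches on genes in the nucleus. Many feedback inhibitors are among those genes, though whether ERK induced each member in these cells was not tested. The members' proteins act back on the route at different levels: IL17RD at the receptor, the Sprouty and Spred proteins between the receptor and RAF, and the phosphatases on the MAP kinases themselves. In the oligodendrocyte lineage, FGF and PDGF signalling is known to keep progenitors dividing, and ERK activity is also known to act later, during myelin growth.

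The comparisons asked how gene expression in the progenitors differed between the surfaces. The libraries held 37997896 to 39429453 estimated counts. Replicates of a group differed by a median chi-square per gene of 1.18 to 1.25, against 0.455 for sampling noise alone, except for VN replicate 1, which differed from its 2 partners by 2.02 and 2.00. Among markers of the labelled cell type, OLIG1 was at 48.2, 62.6 and 66.9 TPM, a level that allows for transcript length and library size, and OLIG2 at 41.3, 54.0 and 50.8 on Matrigel, VN and VNP2, and PDGFRA was low at 3.76, 4.53 and 4.94. SOX10 and GPR17, which also mark the labelled cell type, were at or near 0, with 20 and 12 estimated counts in the 8 libraries combined, so these 2 defining markers were absent or nearly so on every surface. The summed TPM of 8 OPC markers was 215 to 217 on Matrigel, 282 to 296 on VN and 310 to 334 on VNP2. It was 938 to 974, 1077 to 1116 and 1123 to 1142 for 10 neuron markers, 592 to 597, 647 to 684 and 563 to 596 for 12 mesenchymal markers, 27.3 to 28.96, 27.4 to 29.5 and 36.5 to 39.7 for 10 neural crest markers, of which 7 were under 1 TPM and SOX10, PAX3, FOXD3 and TFAP2B at or near 0, and 92.8 to 97.9, 83.6 to 85.5 and 76.7 to 80.1 for 7 pluripotency markers. The OPC, neuron and neural crest sums were thus highest on VNP2, where most of the feedback inhibitors were also highest, and their part in the results was not tested. Single genes made up much of these sums: PTPRZ1 had 108, 151 and 178 TPM of the OPC sum, TUBB3 548, 551 and 569 of the neuron sum and NGFR 22.8, 21.9 and 30.5 of the neural crest sum on Matrigel, VN and VNP2. Between VNP2 and VN, edgeR called 2 of 6 tested OPC markers higher, OLIG1 and OLIG2 not among them. It called 2 of 10 neuron markers higher and 1 lower, and 1 of 7 neural crest markers, NGFR, higher. Of all genes, 5.18% were called there and 3.07% were called higher. Against Matrigel, 6 of 6 OPC markers, 7 of 10 neuron markers and 2 of 7 neural crest markers were called higher on VNP2 and 0 lower, beside 7.45% of all genes called higher. Of 12 mesenchymal markers, 6 were called higher and 4 lower there, beside 9.13% of all genes called lower. Among the 4 was COL1A1, at 159, 116 and 63.1 TPM on Matrigel, VN and VNP2. Of 7 pluripotency markers, 1 was called higher and 3 lower. On VNP2 against VN, 2 mesenchymal markers were called higher and 2 lower, and 0 and 2 pluripotency markers. In RNA from a whole culture, fewer cells of a type and less RNA per cell cannot be told apart.

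Set side by side on the TPM scale, DUSP6 was the most abundant member, at 237 ± 1.09 TPM on Matrigel (SD, n = 2), 248 ± 11.5 on VN (SD, n = 3) and 287 ± 9.01 on VNP2 (SD, n = 3). DUSP4, SPRY2, SPRY1 and IL17RD formed the middle of the range. On Matrigel and on VN their order was DUSP4 (means of 106 and 106 TPM), SPRY2 (99.7 and 95.9), SPRY1 (67.6 and 73.7) and IL17RD (61.8 and 62.0). On VNP2 the order of the first pair was turned: SPRY2 was at 146 to 164 TPM in the 3 libraries, above DUSP4 at 121 to 130, SPRY1 at 113 to 120 and IL17RD at 81.2 to 93.6. The libraries of neighbours in these orders did not overlap. The remaining members were lower, with VNP2 means of 37.9 TPM for SPRED2, 30.3 for SPRED1, 28.2 for SPRY4 and 10.9 for SPRED3. On VNP2 the libraries of SPRED1 (30.1 to 30.5 TPM) and SPRY4 (25.98 to 30.7) overlapped, so that their order was not resolved there, whereas on Matrigel and VN the level of SPRED1 was the higher in every library (26.6 and 27.3 against 17.4 and 16.8). The TPM of the 9 genes together summed to 657 to 660 on Matrigel, 651 to 697 on VN and 846 to 906 on VNP2.

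**Figure D1:**
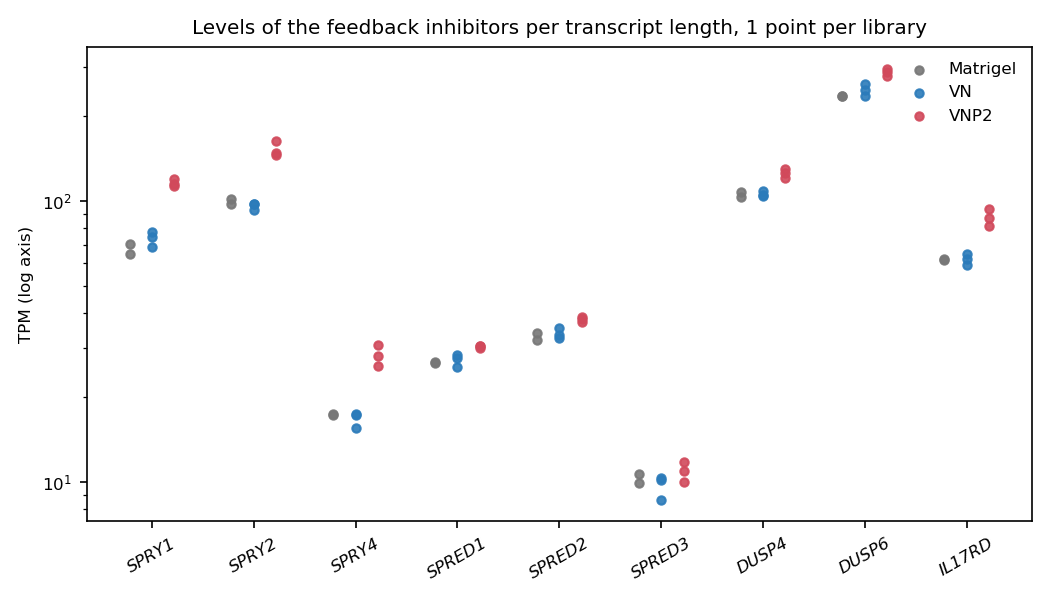
Levels of the 9 feedback inhibitors in TPM (vertical axis, logarithmic), 1 point per library, in grey for Matrigel, blue for VN and red for VNP2. DUSP6 lies at the top, between 236 and 296 TPM, and SPRED3 at the bottom, between 8.65 and 11.8, and the red points stand above all others for every member but SPRED3, narrowly for SPRED1 and SPRED2.

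Since several members moved together, the letters around their starts are shown, from RefSeq windows (GRCh38.p14) that reach from 250 bases before a start to 50 after it. Windows were searched for 8 members, all but DUSP4, and where a gene had several, the one nearest to the start of its main transcript was taken. The RefSeq start lay 0, 22 and 175 bases from the main start for SPRY1, IL17RD and SPRY2, and 409, 422, 510, 754 and 770 bases from it for SPRED3, SPRED2, SPRED1, SPRY4 and DUSP6, so that 6 of the 8 windows, all but those of SPRY1 and IL17RD, did not reach the start of the transcript with the largest share of the counts. Motifs tied to this pathway were searched on both strands. The octamer of Capicua (CIC), a repressor that ERK switches off, was searched as TGAATGAA, TGAATGGA, TCAATGAA or TCAATGGA. The others were an ETS motif (CCGGAAG), the AP-1 motif (TGACTCA) and the cyclic AMP response element (TGACGTCA). The GC box (GGGCGG), which is not particular to this pathway, was added to the search after the sequences had been read. Of all 35116 windows, 3.77% held a CIC octamer, 10.3% the ETS motif, 4.95% the AP-1 motif, 1.85% the cyclic AMP response element and 45.0% a GC box. DUSP6 held 2 CIC octamers, at chr12:89352510-89352533 and chr12:89352485-89352508 with their flanks, which the annotation places in the 5′ untranslated exon of DUSP6-201. SPRY1 held the ETS motif, at chr4:123398311-123398333, in an untranslated exon of SPRY1-204. SPRED3, the member that passed no test, held a CIC octamer at chr19:38389591-38389614, in no exon, and an AP-1 motif at chr19:38389723-38389745, in an untranslated exon of SPRED3-202. The capitals mark the motif, and each sequence is on its gene's strand, 5′ to 3′.
DUSP6, first site: agaatgtaTCCATTGAgacgctcg
DUSP6, second site: tgtttgtaTCCATTGAggagctgc
SPRY1: ctccgcagCCGGAAGggggccgc
SPRED3, CIC octamer: gatttttgTGAATGAAatgctctc
SPRED3, AP-1 motif: ttgctgggTGACTCAgtgagctt

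A GC box was held by 6 of the 8 windows. Its letters were chosen after the sequences had been read, so this count is no test. The share of G and C in the 8 windows ran from 58.3% (DUSP6) to 76.3% (SPRED1), against a median of 58.7% over all windows. In 5 of the 6 windows with a GC box, those of SPRY2, SPRY4, SPRED1, SPRED2 and IL17RD, no other letters searched were found. SPRY1 held 2 GC boxes beside its ETS motif. SPRY2 and IL17RD, which had more than 1 GC box outside annotated exons, are shown with those boxes in capitals, for SPRY2 250 bases at chr13:80341127-80341376 and for IL17RD 228 bases at chr3:57165376-57165603, both on the minus strand. The stretch of SPRY2 lies upstream of the annotated gene. That of IL17RD lies upstream of the main transcript, IL17RD-201, but inside the gene, since IL17RD-202, IL17RD-204 and IL17RD-205 start farther upstream. A match describes letters only, not a site in use, and no match says nothing about the factor.
SPRY2: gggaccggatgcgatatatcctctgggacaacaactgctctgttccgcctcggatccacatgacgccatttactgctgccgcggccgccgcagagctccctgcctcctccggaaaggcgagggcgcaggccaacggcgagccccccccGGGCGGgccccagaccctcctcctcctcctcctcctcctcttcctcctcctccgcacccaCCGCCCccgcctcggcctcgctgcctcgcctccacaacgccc
IL17RD: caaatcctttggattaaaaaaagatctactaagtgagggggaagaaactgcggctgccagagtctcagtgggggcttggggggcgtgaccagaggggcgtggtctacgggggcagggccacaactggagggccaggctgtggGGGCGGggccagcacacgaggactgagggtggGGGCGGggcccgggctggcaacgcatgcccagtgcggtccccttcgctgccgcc

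The 3 Sprouty genes among the members showed the largest rises of the family, by about 1.5 to 1.7-fold on VNP2 against either of the other surfaces. Another Sprouty gene, SPRY3, is no member and was read with the other brakes below. It had means of 294, 352 and 339 normalized counts on Matrigel, VN and VNP2. EdgeR did not call SPRY3 on VNP2 against VN (log2 fold change -0.057, adjusted p = 0.766) or Matrigel (0.20, adjusted p = 0.189). Sprouty proteins are induced by growth factors and dampen the step from the receptor to RAS and RAF. SPRY1 (chr4:123396795-123403760, plus strand, GRCh38) had normalized counts, scaled for depth and transcript length, of 2444 and 2241 in the Matrigel libraries, 2294, 2527 and 2429 in the VN libraries and 3747, 3968 and 3784 in the VNP2 libraries. Every VNP2 library stood above every other library, and the Matrigel and VN libraries overlapped. The edgeR quasi-likelihood test gave a log2 fold change of 0.71 (SE 0.0561, adjusted p = 1.27e-05) against Matrigel and 0.67 (SE 0.0493, adjusted p = 5.56e-05) against VN.

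SPRY2 (chr13:80335976-80340951, minus strand) had normalized counts of 4335 and 4529 in the Matrigel libraries, 4191, 4065 and 3865 in the VN libraries and 6965, 6323 and 6202 in the VNP2 libraries. Again the VNP2 libraries lay above all others, and here the VN libraries lay below both Matrigel libraries. The log2 fold change was 0.55 (SE 0.0564, adjusted p = 7.90e-05) against Matrigel and 0.69 (SE 0.05003, adjusted p = 5.27e-05) against VN by the same test. SPRY4 (chr5:142310427-142326455, minus strand) had 1650 and 1631 in the Matrigel libraries, 1415, 1540 and 1552 in the VN libraries and 2775, 2527 and 2336 in the VNP2 libraries. Its groups were ordered in the same way as those of SPRY2. SPRY4 rose on VNP2 by 0.63 on the log2 scale against Matrigel (SE 0.0731, adjusted p = 0.000190) and by 0.76 against VN (SE 0.0649, adjusted p = 0.000116), the largest change of any member in any comparison. An antisense gene, SPRY4-AS1, overlaps SPRY4, and the library kit was a stranded one. The study placed Sprouty genes in a group of inhibitors picked from these same samples, so their direction between VNP2 and VN is not independent evidence.

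**Figure D2:**
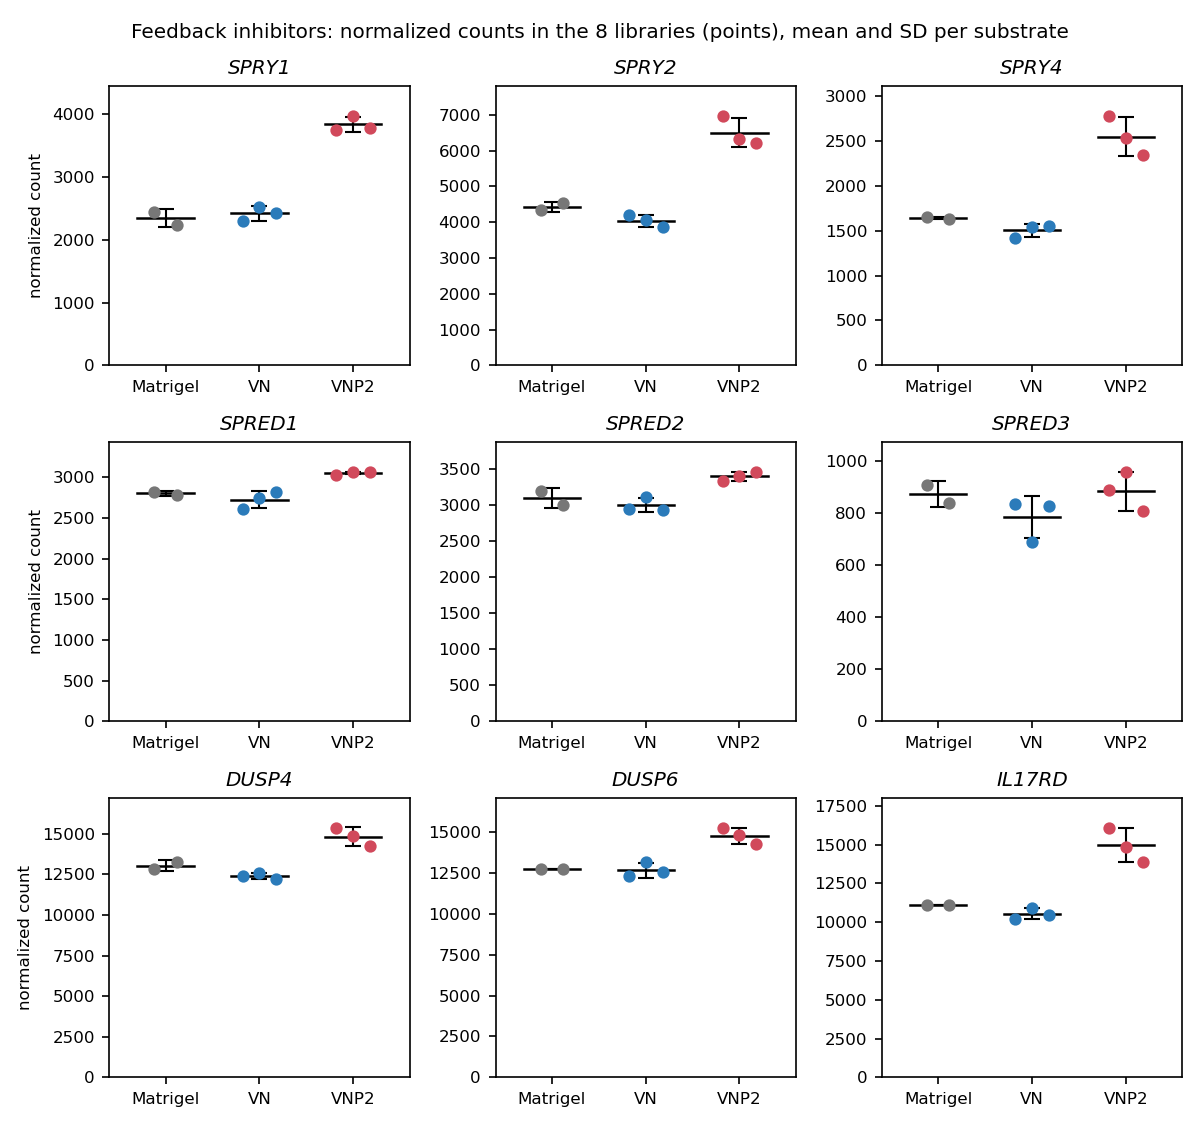
Normalized counts of each member (vertical axes, from 0) in the 2 Matrigel, 3 VN and 3 VNP2 libraries, with points for libraries, long lines for means and bars for the SD. For 8 of the 9 genes every VNP2 library lies above every other library, and for SPRED3 the groups overlap.

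The Spred genes, whose proteins bring the RAS-inactivating protein neurofibromin to the membrane, moved less. SPRED1 (chr15:38252326-38357249, plus strand) had normalized counts of 2826 and 2786 in the Matrigel libraries, 2616, 2748 and 2815 in the VN libraries and 3036, 3068 and 3063 in the VNP2 libraries. SPRED2 (chr2:65310851-65432637, minus strand) had 3200 and 3001, then 2953, 3119 and 2938, then 3337, 3406 and 3461 in the same order. For both genes the VNP2 libraries lay above the rest while Matrigel and VN overlapped. Against VN, SPRED1 rose by 0.16 (SE 0.0383, adjusted p = 0.0350) and SPRED2 by 0.18 (SE 0.0409, adjusted p = 0.0310) on the log2 scale in the edgeR test. Against Matrigel their log2 fold changes of 0.12 (95% interval 0.028 to 0.22, adjusted p = 0.0807) and 0.13 (0.032 to 0.24, adjusted p = 0.0765) did not pass.

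These calls sat near the threshold. The call of SPRED1 between VNP2 and VN was lost in 9 of 18 alternative analyses, with adjusted p-values from 0.0125 to 0.436, and that of SPRED2 in 5 of 18, with 0.00651 to 0.115. Single libraries were enough: edgeR's adjusted p for SPRED1 was 0.0589 without Matrigel replicate 2, 0.0588 without Matrigel replicate 3, 0.0823 without VN replicate 2, and 0.0984, 0.101 and 0.106 without VNP2 replicates 1, 2 and 3. For SPRED2 it was 0.110 without VN replicate 3, and 0.0730, 0.0883 and 0.115 without VNP2 replicates 1, 2 and 3. SPRED3 (chr19:38388421-38399587, plus strand) had normalized counts of 909 and 839 in the Matrigel libraries, 834, 690 and 827 in the VN libraries and 887, 958 and 807 in the VNP2 libraries. Its groups overlapped between VNP2 and each other surface, and it was the 1 member that passed no test. Its log2 fold change between VNP2 and VN was 0.18 with a 95% interval of -0.019 to 0.37 (edgeR adjusted p = 0.306), so a rise of the size seen in SPRED1 and SPRED2 was not detectable for SPRED3 with this spread.

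The 2 phosphatases were high everywhere and rose on VNP2 by 1.14 to 1.19-fold. DUSP4 removes phosphate from MAP kinases in the nucleus, and DUSP6 is largely cytoplasmic and acts mainly on ERK. DUSP4 (chr8:29333064-29350668, minus strand) had normalized counts of 12805 and 13270 in the Matrigel libraries, 12429, 12593 and 12206 in the VN libraries and 15358, 14877 and 14228 in the VNP2 libraries. The VNP2 libraries stood above the others, and the VN libraries stood below both Matrigel libraries. Its log2 fold change was 0.26 (SE 0.0347, adjusted p = 0.00189) against VN and 0.18 (SE 0.0389, adjusted p = 0.00854) against Matrigel in the edgeR test, the latter with an adjusted p of 0.0956 once Matrigel replicate 2 was left out.

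DUSP6 (chr12:89347232-89353271, minus strand), whose CIC octamers are printed above, had 12716 and 12736 normalized counts in the Matrigel libraries, 12280, 13129 and 12513 in the VN libraries and 15230, 14793 and 14248 in the VNP2 libraries. The Matrigel libraries lay within the range of the VN libraries, and those of VNP2 lay above both. The log2 fold change was 0.22 (SE 0.0357, adjusted p = 0.00516) against VN and 0.21 (SE 0.0402, adjusted p = 0.00447) against Matrigel by the same test. The antisense gene AC024909.2 overlaps DUSP6.

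IL17RD (chr3:57089982-57170306, minus strand) encodes a membrane protein that opposes FGF receptor signalling. Its normalized counts were 11120 and 11103 in the Matrigel libraries, 10229, 10923 and 10498 in the VN libraries and 16081, 14883 and 13894 in the VNP2 libraries. The lowest VNP2 library was 2774 normalized counts above the highest of the others, and the VN libraries lay below both Matrigel libraries. IL17RD rose on VNP2 by 0.50 on the log2 scale against VN (SE 0.0492, adjusted p = 0.000287) and by 0.43 against Matrigel (SE 0.0555, adjusted p = 0.000425), also by edgeR. Its rise was thus between those of the Sprouty genes and those of the phosphatases in both comparisons. Within the VNP2 group, replicate 1 held the highest normalized count for 5 of the 9 members and replicate 3 the lowest for 6.

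Counted over the family, 8 of 9 members were called higher on VNP2 than on VN at an adjusted p under 0.05, where 5.18% of all genes tested were called and 3.07% were called higher. SPRY1, SPRY2 and SPRY4 are among the 8, and the study had listed them as higher on VNP2 than on VN in this same experiment. The family was chosen with such results known, so its count is not independent evidence beside these shares. Against Matrigel, 6 were called higher on VNP2, beside 16.6% of all genes called and 7.45% called higher. The median log2 fold change of the 9 members was 0.26 against VN and 0.21 against Matrigel, and over all genes it was -0.0026 and 0.0030. Across the 3 surfaces together 8 members were called, beside 19.3% of all genes, and each of these had its highest mean on VNP2, a pattern that 6.02% of all genes tested were called with. By libraries alone, 8 members lay wholly above VN and 8 wholly above Matrigel on VNP2, as 12.2% and 23.1% of all genes did, and the same counts were found on the TPM scale. The calls of SPRY1, SPRY2, SPRY4, DUSP4, DUSP6 and IL17RD between VNP2 and VN held in all 18 alternative analyses. Both comparisons with Matrigel rest on the same 2 Matrigel libraries. The all-gene counts behind these shares moved with single libraries. Without Matrigel replicate 2 or 3, the genes called fell from 3017 to 1631 or 1611 for VNP2 against Matrigel and from 3517 to 1919 or 1881 across the surfaces. Between VNP2 and VN they went from 942 to 1979 without VN replicate 1, to 582 or 580 without VN replicate 2 or 3, and to 544 or 548 without VNP2 replicate 1 or 3.

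**Figure D3:**
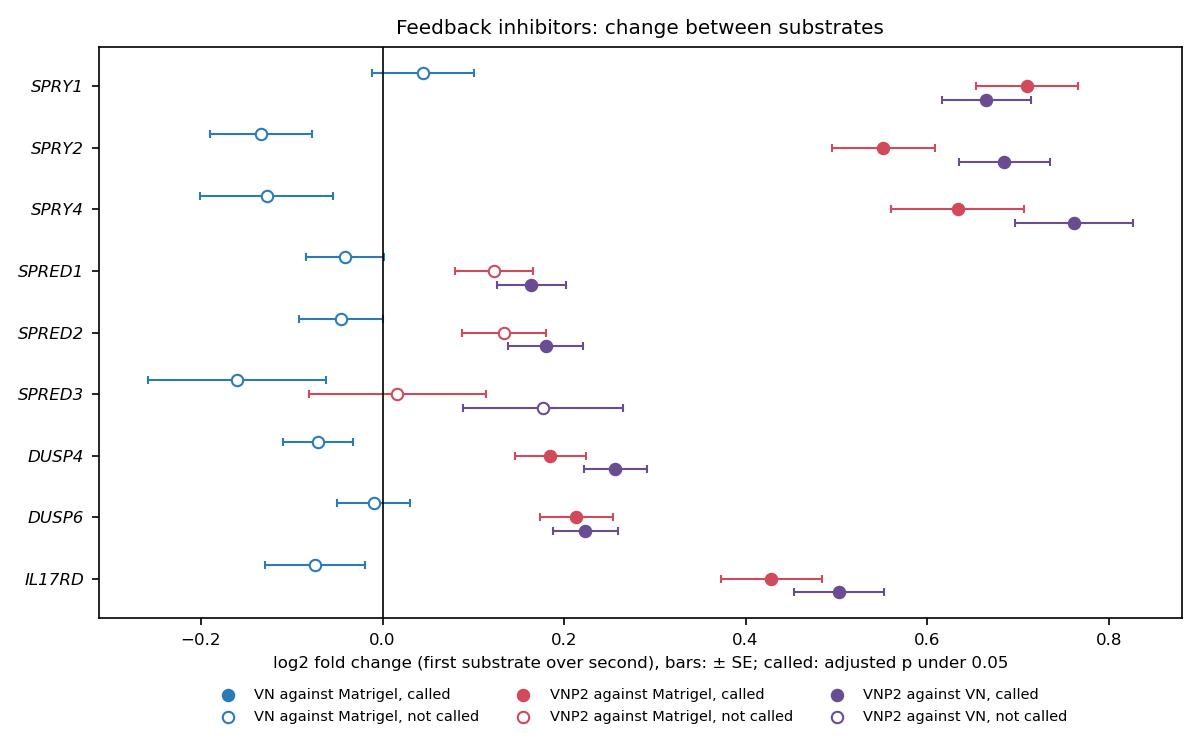
Log2 fold changes of the 9 members (horizontal axis) with their SE, for VN against Matrigel in blue, VNP2 against Matrigel in red and VNP2 against VN in purple, filled where the adjusted p was under 0.05. The Sprouty genes lie farthest to the right, at 0.55 to 0.76 in the 2 comparisons with VNP2, and the blue points are open and lie between -0.16 and 0.045.

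Between VN and Matrigel, edgeR called 0 of 9 members, where it called 15.2% of all genes, or 2770. For so few genes, 0 of 9 is near that share, so the count alone does not set the members apart from other genes. SPRY2 was the 1 member with an unadjusted p under 0.05 (0.0381, adjusted p = 0.141), and DESeq2 also called 0. The log2 fold changes ran from -0.16 for SPRED3 to 0.045 for SPRY1, with a median of -0.071 against 0.0083 over all genes, and the 95% intervals of the 9 genes reached from -0.38 to 0.17 at most. A change of the size seen on VNP2 lay outside these intervals for SPRY1 (-0.080 to 0.17), SPRY2 (-0.26 to -0.0089), SPRY4 (-0.29 to 0.035), DUSP4 (-0.16 to 0.015), DUSP6 (-0.099 to 0.079) and IL17RD (-0.20 to 0.047). The same held for SPRED1 (-0.14 to 0.054) and SPRED2 (-0.15 to 0.056), whose own changes on VNP2 against Matrigel were small and did not pass. By normalized counts 5 members, namely SPRY2, SPRY4, SPRED3, DUSP4 and IL17RD, had all VN libraries below both Matrigel libraries, as 22.7% of all genes did. On the TPM scale 0 members did. That scale moved the median gene by 0.071 upwards on VN, against -0.0077 for normalized counts, so the small VN differences depend on the scaling.

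The counts of most members came from a single transcript. In SPRY2, SPRY2-202 held 93.4 to 93.8% of the counts in the group means. SPRY1 was carried by SPRY1-208, with 72.7 ± 0.167% on Matrigel (SD, n = 2), 75.3 ± 2.85% on VN and 74.1 ± 0.563% on VNP2 (SD, n = 3 each), and in smaller shares by SPRY1-206 and SPRY1-202. SPRY4-201 held 71.3 ± 0.487%, 71.0 ± 4.50% and 73.9 ± 5.20%, and SPRY4-206, a transcript with a retained intron, 15.8 ± 0.4999%, 16.6 ± 4.87% and 14.1 ± 5.01%. DUSP6-201, the transcript whose first exon holds the printed octamers, had 70.1 ± 0.743%, 72.0 ± 1.61% and 69.4 ± 1.75%. The shares of these 3 genes therefore differed between surfaces by amounts of the order of the spread between replicates, while their total counts on VNP2 did not overlap with the rest. For SPRY1, the matched transcripts held 94.4% of the level in the study's own table, which used a later annotation, and for the other members the levels were nearly the same.

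Profiles over the 8 libraries were then compared, by the root mean square difference of centred log2 normalized counts, with those of 12987 other genes. IL17RD was nearest to ETV4, an ETS factor induced by FGF signalling, at 0.0361, with ETV4 means of 2201, 2158 and 3075 normalized counts on Matrigel, VN and VNP2. DUSP4 and DUSP6 shared FAM19A5, a secreted brain protein, at 0.0390 and 0.0345, and were closer still to each other, at 0.0336. SPRY1 was nearest to HEY2, a transcriptional repressor of the Notch pathway, at 0.0596. SPRY2 was nearest to ZMYND10, which is needed to assemble the motors of cilia, at 0.0553, and SPRY4 to ITPRID2 at 0.0743. SPRED1 and SPRED2 had ANKRD12 (0.0262) and TAPBP (0.0363), a part of the antigen-loading machinery, as nearest genes, and lay 0.0402 from each other. These distances describe 8 libraries whose main differences are shared by many genes, and they shrink for genes that vary little.

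Other brakes on the same route were read in the same comparisons. Of 8 other MAP kinase phosphatases, edgeR called 0 between VNP2 and VN, and DESeq2 also called 0. As 5.18% of all genes were called, 0 of 8 is near that share. In edgeR 7 of the 8 lay above 0, with 4 higher at an unadjusted p under 0.05, and the median log2 fold change of the 8 was 0.19. DUSP2, DUSP5 and DUSP9 had low means, of 6.89, 69.1 and 38.2 normalized counts over the 8 libraries. DUSP1, an inducible nuclear phosphatase, fell from Matrigel on VN (means of 1073 and 815 normalized counts, log2 fold change -0.40, adjusted p = 0.00413) and on VNP2 (902, -0.25, adjusted p = 0.0333). DUSP5, which acts on ERK in the nucleus, fell on VN (92.7 and 48.0 normalized counts, -0.95, adjusted p = 0.0210). A further list held 23 brakes, from RAS GTPase-activating proteins to receptor-binding inhibitors, of which 21 were tested. Between VNP2 and VN, DESeq2 called 1 of these higher and 1 lower. There edgeR called 1, beside 5.18% of all genes: the membrane protein LRIG3, which fell by 0.31 (adjusted p = 0.00601). Against Matrigel, 5 of these fell on VNP2, where 9.13% of all genes were called lower, namely LRIG3 (-0.47), the EGF receptor inhibitor ERRFI1 (-0.42), the kinase-less FGF receptor FGFRL1 (-0.27), the adaptor SH2B3 (-0.27) and the ubiquitin ligase CBL (-0.13). On VN, 4 fell and 2 rose, beside 15.2% of all genes called, with ERRFI1 (-0.46), FGFRL1 (-0.38) and SH2B3 (-0.29) among those that fell.

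**Figure D4:**
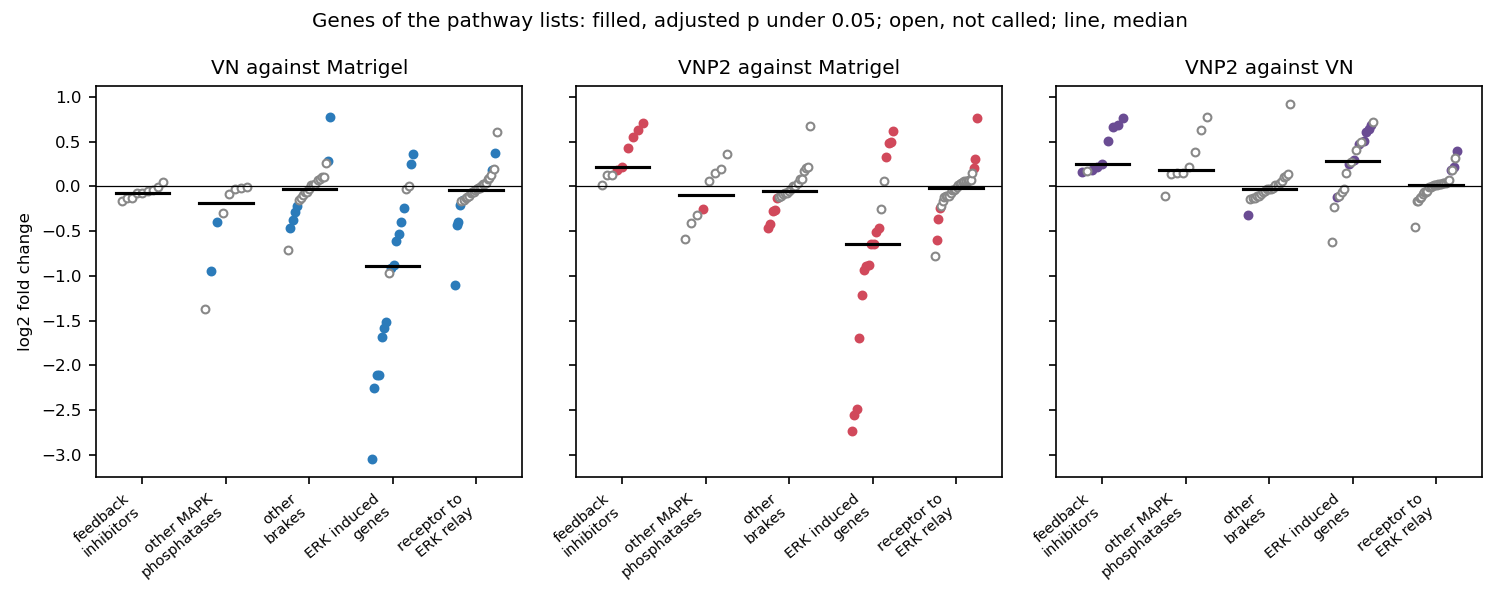
Log2 fold changes (vertical axis) of the genes of 5 lists in the 3 comparisons, filled where the adjusted p was under 0.05, with lines at the list medians. The feedback inhibitors lie above 0 in both comparisons with VNP2, and the ERK induced genes lie mostly far below 0 in both comparisons with Matrigel, with medians of -0.89 and -0.64.

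Genes outside this family that ERK is known to induce followed more than a single pattern. Of 18 tested among 20, 13 fell and 2 rose on VN against Matrigel (median log2 fold change -0.89), and 12 fell and 4 rose on VNP2 against Matrigel (median -0.64), where 9.41% and 9.13% of all genes were called lower. IER3, an immediate early gene, had means of 2839, 596 and 507 normalized counts on Matrigel, VN and VNP2, FOSL2, a subunit of AP-1, had 1161, 272 and 174, and its relative FOSL1 had 348, 80.9 and 108. All 3 were thus several-fold lower on both vitronectin surfaces, by -2.25, -2.11 and -2.10 on VN and -2.49, -2.73 and -1.69 on VNP2 on the log2 scale (adjusted p-values from 1.45e-08 to 5.42e-05).

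Between VNP2 and VN, 7 of the 18 rose and 1 fell, where 5.18% of all genes were called and 3.07% were called higher. The median log2 fold change of the 18 was 0.28. ETV5, an ETS factor of the same group as ETV4, had means of 2111, 2119 and 3234 normalized counts on Matrigel, VN and VNP2 and rose against VN by 0.61 (SE 0.0431, adjusted p = 4.70e-05). ETV4 rose by 0.51 (SE 0.0539, adjusted p = 0.000457). The third member of that group, ETV1, which was picked after its values were seen, had means of 2369, 2825 and 3356 and rose by 0.25 (SE 0.0436, adjusted p = 0.00856). The immediate early factors EGR1 and FOS also rose against VN, by 0.69 (adjusted p = 0.0439) and 0.64 (adjusted p = 0.0226), but with means of 273, 91.3 and 147 for EGR1 and 193, 67.6 and 105 for FOS they stayed highest on Matrigel. ETV4 is described here because its profile was the nearest to that of IL17RD and ETV5 because its change between VNP2 and VN was large, so that their likeness to the members follows from that choice.

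**Figure D5:**
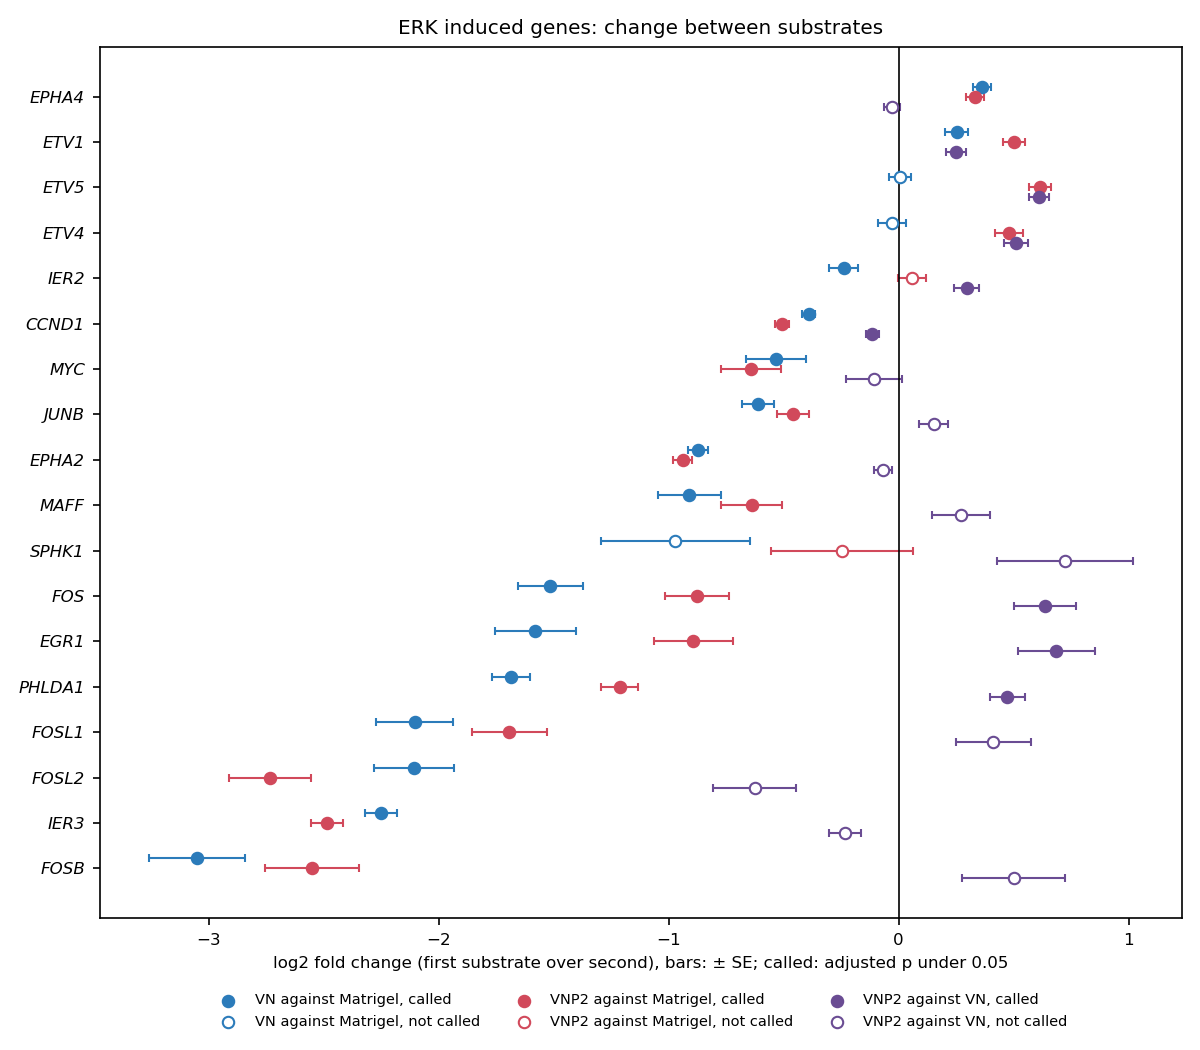
Log2 fold changes (horizontal axis) with their SE for the 18 tested ERK induced genes, for VN against Matrigel in blue, VNP2 against Matrigel in red and VNP2 against VN in purple, filled where the adjusted p was under 0.05. ETV1, ETV4 and ETV5 lie to the right of 0 on VNP2 against either surface, while IER3, FOSL1, FOSL2, EGR1 and FOS lie far to the left against Matrigel.

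Of 28 genes of the relay from FGF receptors to ERK, 3 rose on VNP2 against VN, where 3.07% of all genes were called higher, with 1 called lower by DESeq2 and 4 lower at an unadjusted p under 0.05 in edgeR, where 0 passed. They were the receptors FGFR1 (means of 10817, 11460 and 13350 normalized counts on Matrigel, VN and VNP2, log2 fold change 0.22, adjusted p = 0.00367) and FGFR2 (1501, 1938 and 2552, 0.40, adjusted p = 0.000740) and the ERK-activated kinase gene RPS6KA3 (5260, 4863 and 5515, 0.18, adjusted p = 0.0288). Against Matrigel, 3 rose and 3 fell on VNP2, beside 16.6% of all genes called, among them FGFR2 (0.77), FGFR3 (-0.36) and the adaptor SHC1 (-0.60). On VN, 2 rose and 5 fell, beside 15.2%, among them FGFR2 (0.37), SHC1 (-0.43) and HRAS (-0.40), which encodes a RAS protein. The medians of this list lay between -0.037 and 0.021 in the 3 comparisons.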

How the data were processed

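Polyadenylated RNA was sequenced in the 8 stranded paired-end libraries analysed here, with Matrigel replicate 1 not among them. Per the labels and the study's methods, the authors trimmed reads with Trim Galore, quantified the GENCODE v32 transcripts with Salmon, and imported the estimates into DESeq2 1.27.12 with tximport. The authors deposited estimated counts and TPM per transcript, and a gene table of 23350 genes whose values are a signal, counts divided by DESeq2's normalization factors.

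Here, 205225 of 226608 transcripts, with 98.8 to 98.9% of the estimated counts, were matched by identifier to GENCODE v29 (GRCh38) and summed per gene. Transcripts missing from v29 lower some genes. Counts were rounded, and 18201 genes passed filterByExpr (count of at least 10, total of at least 15). They were fitted together in edgeR 4.0.16 (R 4.3.3) with quasi-likelihood tests, TMM normalization and offsets for transcript length, without a replicate term. P-values were two-sided and Benjamini-Hochberg adjusted over all genes tested, with calls made below 0.05. A level in TPM is the sum over a gene's transcripts. A count of 100 has a sampling error of about 10%. The scripts were tested on simulated data. The members and lists were chosen with earlier results of these data known.

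Beside the 9 members, each pathway list contributed the up to 3 called genes with the largest change and a mean normalized count of at least 100 per comparison, or every called gene where 5 or fewer were called. The nearest profile was taken for each member called across the surfaces. The alternatives were DESeq2 1.42.0, RLE in place of TMM, omitting the length offsets, a replicate block, a fit without the filter or with 50 counts required in each library, the libraries of a pair alone, limma 3.58.1 on log2 of the authors' table with a pseudocount of 1 or 10, each library left out in turn, and limma on log2 of TPM with a pseudocount of 1, chosen after seeing the data.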

Additional observations from a re-analysis of the deposited data

How the results depend on the processing

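The calls of SPRY1, SPRY2, SPRY4, DUSP6 and IL17RD in both comparisons with VNP2, and of DUSP4 against VN, held in all 18 alternatives, and the numbers of members called on VNP2 stayed within 5 to 8 of 9. Leaving out each library in turn, the members called ranged from 5 to 7 for VNP2 against Matrigel, from 6 to 8 for VNP2 against VN and from 6 to 8 across the surfaces. The genes called ranged from 1184 to 3911 (VN against Matrigel), 1611 to 3653 (VNP2 against Matrigel), 544 to 1979 (VNP2 against VN, the highest without VN replicate 1, against 942 with it) and 1881 to 4981 across the surfaces. With 1 Matrigel library left, that library is assumed to vary like the other groups. Log2 fold changes near 0 changed sign. With each library left out, the ranges that crossed 0 were -0.019 to 0.11 for SPRY1, -0.095 to 0.00084 for SPRED2 and -0.038 to 0.011 for DUSP6 (VN against Matrigel) and -0.044 to 0.081 for SPRED3 (VNP2 against Matrigel). Without length offsets SPRED1 and DUSP6 turned to 0.020 and 0.0062 on VN and SPRED3 to -0.027 on VNP2 against Matrigel, and with at least 50 counts in every library DUSP6 turned to 0.0012 on VN. On TPM, SPRED1, SPRED2, DUSP4, DUSP6 and IL17RD turned to 0.036, 0.032, 0.0078, 0.068 and 0.0036 on VN against Matrigel. None of these passed the threshold in either analysis. The cause was not tested, beyond the shift of scale given with the VN comparison.

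A replicate block changed the count for VN against Matrigel from 0 to 1 member, SPRY2 (log2 fold change -0.17, adjusted p = 0.0269), and turned SPRED3 to -0.0083 on VNP2 against Matrigel. Whether the numbers pair the libraries was not resolved. Of 7 pairs with the same number, 1 had deviations from the group means correlated over 0.1. Of 8 libraries, 2 were most like one of their own number in another group. With means of 2 or 3 libraries the deviations within a group depend on each other, so the check cannot exclude pairing. Since Matrigel had 2 libraries, the SE of the members' log2 fold changes was larger against Matrigel (0.0389 to 0.0978 on VNP2) than between VNP2 and VN (0.0347 to 0.0880), which limits what can be said of the small changes in the Spred genes.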
